A study of Homo sapiens with 12 samples.

Results

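The microRNAs miR-221 and miR-222 were followed on both arms of their hairpins in KYSE150 cells, an established line of human oesophageal squamous cell carcinoma. The members are the 4 array probes named hsa-miR-221-5p (MIMAT0004568), hsa-miR-221-3p (MIMAT0000278), hsa-miR-222-5p (MIMAT0004569) and hsa-miR-222-3p (MIMAT0000279), chosen by name from 2565 human miRNA probes. Cells received 100 nM galectin-9 for 6 h (6 arrays) or no galectin-9 (6 control arrays), all in Ham's F12 medium with 2% fetal bovine serum. Galectin-9 is a lectin that binds beta-galactosides on the cell surface, and the study looked for miRNAs that accompany its action against this tumour type. Total RNA labelled with Cy5 was hybridised to 3D-Gene arrays, 1 sample per array and 1 colour. KYSE150 is a single line. Whether the 6 samples of a group were cultured separately is not stated, and the p-values therefore describe variation among these 12 samples that could be technical.

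Both hairpins are cut from 1 primary transcript, MIR222HG, by Drosha and Dicer. The strand that enters Argonaute is called the guide and the other the passenger, which is mostly degraded. For both hairpins the 3p arm is the usual guide. It represses CDKN1B, which encodes the cell cycle inhibitor p27, and also the receptor gene KIT, and both miRNAs are raised in many carcinomas. The 5p arms are the passengers.

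The sequences show why the guides form 1 family while the passenger of miR-222 stands apart. Coordinates and sequences are those of RefSeq on GRCh38.p14. MIR222HG spans chrX:45745214-45770267 and is transcribed from the minus strand. The hairpin MIR222 (chrX:45747015-45747124) precedes MIR221 (chrX:45746157-45746266) in the direction of transcription, with 748 bases between them, and both lie within MIR222HG. RefSeq held the mature sequence of 3 of the 4 members, given here 5′ to 3′ with the seed, bases 2 to 8, in capitals.
hsa-miR-221-3p: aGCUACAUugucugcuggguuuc
hsa-miR-222-3p: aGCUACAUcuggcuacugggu
hsa-miR-222-5p: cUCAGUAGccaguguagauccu
Both guides have the seed GCUACAU, which no other of 2370 mature human miRNA names in the table had. They are identical over bases 1 to 8 and at 11 of the 21 positions of the shorter one, aligned without gaps. The seed of miR-222-5p was found in no other mature miRNA there. The hairpins follow, with the mature arms above in capitals, so that the order from 5′ passenger to 3′ guide can be read for MIR222. For MIR221 only the 3p arm is marked.
MIR221: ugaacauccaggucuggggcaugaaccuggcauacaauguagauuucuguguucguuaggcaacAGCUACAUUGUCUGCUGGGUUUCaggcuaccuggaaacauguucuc
MIR222: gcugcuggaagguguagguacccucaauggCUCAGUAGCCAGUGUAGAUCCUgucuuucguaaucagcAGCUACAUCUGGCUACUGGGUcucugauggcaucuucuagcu

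All 4 probes were detected on all 12 arrays, where detection is the files' own limit of 2 SD of the blank spots above their mean. Over all human miRNA probes, galectin-9 arrays had 1551 to 2045 detected and control arrays 934 to 1895, with the 934 on control 6 (exact permutation p = 0.180, two-sided, adjusted p = 0.481 over 4 array measures). A code in the file names is shared by 4 arrays each and divides the arrays into 3 sets, each with 2 arrays of each group. A position number there is even on every galectin-9 array and odd on every control array, so treatment and parity of position cannot be told apart. As a check of the cell type, the squamous markers miR-205-5p, miR-203a-3p, miR-31-5p and miR-200c-3p were detected on all arrays and miR-944 on 11. Of the blood, muscle, liver, neuron and mesenchyme markers none was detected on all arrays. The blood markers miR-142-3p and miR-150-5p were detected on 11 arrays, as many as miR-944. The muscle marker miR-1-3p was detected on none, and the others on 3 to 8. The endothelial marker miR-126-3p was detected on all arrays, with a log2 difference of -0.02 between groups, and 0 of the tested markers of these other cell types passed (limma, 2 with an unadjusted p under 0.05, 0 in an unmoderated model). These 2 were lower with galectin-9, as were 150 of the 1734 probes tested at that unadjusted p. Of all probes tested 0.173% passed.

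miR-222-5p, the passenger of miR-222, was the member that rose with galectin-9. Its background-subtracted intensity before any normalisation, in arbitrary units, was 12.5 at the lowest, 14.6 at the median and 18.3 at the highest on galectin-9 arrays, against 6.05, 8.16 and 9.18 on control arrays. The lowest galectin-9 array thus lay above the highest control array. The share of all probes without overlap was not computed on this scale. The probe was dim: its signal above background was 6.05 to 12.2 times the detection limit on galectin-9 arrays and 2.07 to 4.94 times on control arrays. Raw intensity, from which the background has not been taken, overlapped between groups, at 40.1 to 51.1 on galectin-9 and 36.7 to 49.3 on control arrays. The background itself was 27.6 to 37.2 on galectin-9 and 28.6 to 42.7 on control arrays (exact permutation p = 0.442, two-sided, adjusted p = 0.589).

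After quantile normalisation, which gives every array the same set of values in rank order, miR-222-5p had a log2 intensity of 3.58 at the lowest, 3.92 at the median and 4.11 at the highest with galectin-9. Control arrays had 2.80, 2.95 and 3.27. The groups again did not overlap. The means were 3.87 ± 0.20 with galectin-9 and 3.01 ± 0.21 in control (SD, n = 6 each), so that miR-222-5p rose 1.82-fold with an interval (95%) of 1.51 to 2.20. The limma adjusted p was 0.0102, by Benjamini-Hochberg over 1734 probes. In 6 of 6 pairs with the same replicate number the galectin-9 array was the higher one, by 0.45 to 1.28 on the log2 scale, as for 4.38% of probes tested. Within array sets 1, 2 and 3 the log2 difference was 0.87, 0.87 and 0.86, each a mean over 2 pairs. With the replicate number as a block the probe did not pass (limma adjusted p = 0.0944).

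Of the 4 members 1 passed the test, against 0.173% of the 1734 probes tested, and it was 1 of 3 probes called, all higher. The replicate block left 1 call, not a member. In the authors' deposited table the same test called 6 probes higher and 3 lower, and after normexp background correction 13 higher and 6 lower. An unadjusted p under 0.05 with galectin-9 higher was reached by 2 of the 4 members and by 4.21% of probes tested. Groups did not overlap for 2 of the 4, with galectin-9 higher, against 0.807% of probes tested and 1.35% of the 891 detected on all arrays. Besides miR-222-5p this counts miR-221-3p, whose groups were only 0.0006 apart on the log2 scale. They shared a value in the authors' deposited table and overlapped before normalisation, so that miR-222-5p alone was left there. The share over all probes was not computed for either of those. All 4 log2 differences lay above 0, as did 36.6% of probes tested and 44.7% of those 891. The median over the 4 members was 0.27, against -0.07 over all probes tested and -0.02 over those detected on all arrays. The share of all probes above 0 moved with the processing. Of the 1734 tested, 635 lay above 0 as reported and 1069 without normalisation between arrays. With the authors' global normalisation, described further below, 1479 did.

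**Figure D1:**
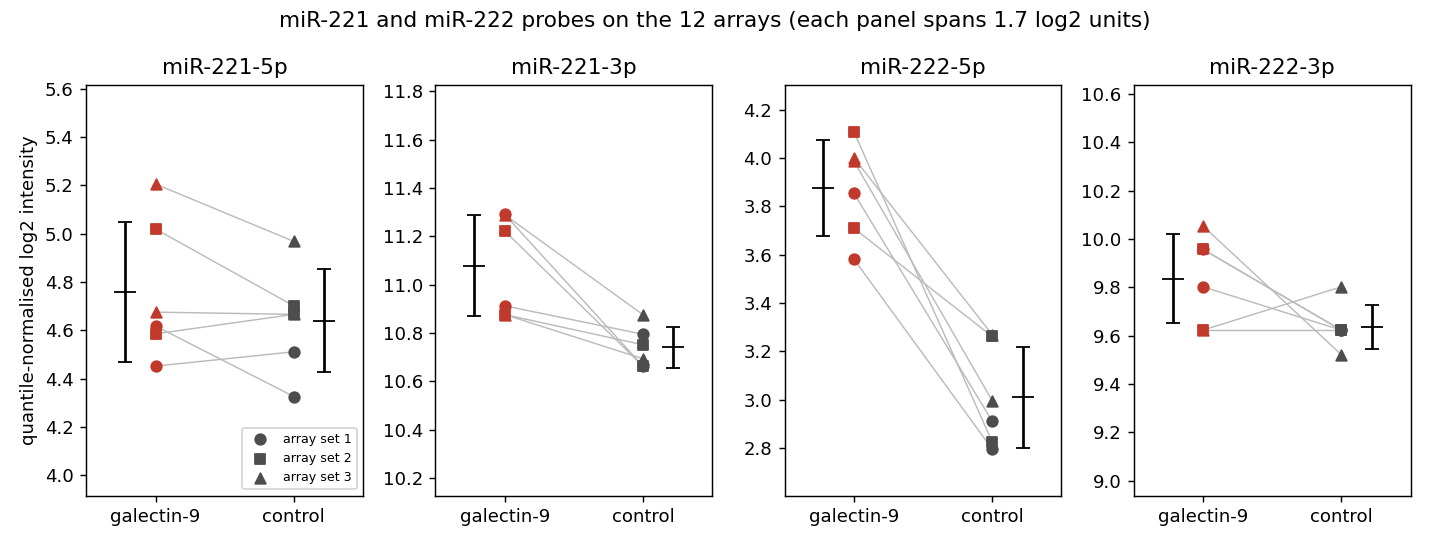
Quantile-normalised log2 intensity of each probe on the 12 arrays, galectin-9 left and control right, with the symbol giving the array set, grey lines joining equal replicate numbers, and the mean ± SD (n = 6 each) beside the points. miR-222-5p ran from 3.58 to 4.11 with galectin-9 and from 2.80 to 3.27 in control, while the other 3 probes overlapped or nearly touched.

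**Figure D2:**
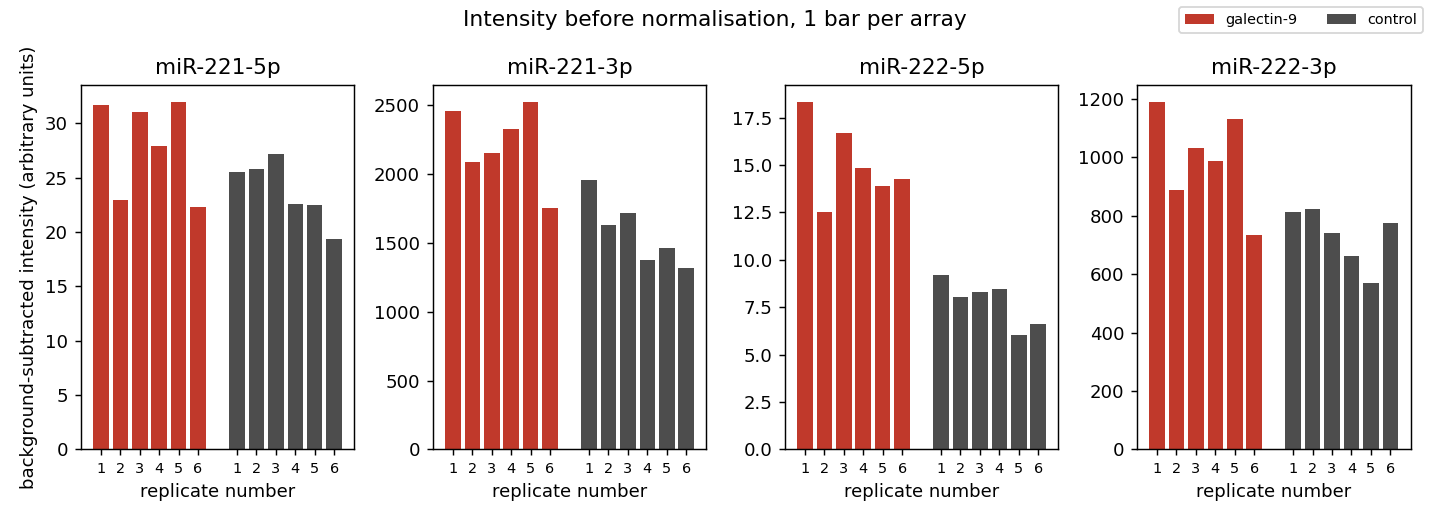
Background-subtracted intensity before normalisation, 1 bar per array in order of replicate number, in arbitrary units from 0 and with a separate axis for each probe. For miR-222-5p every galectin-9 bar, 12.5 to 18.3, stands above every control bar, 6.05 to 9.18. The share of all probes for which this holds was not computed.

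miR-221-3p, a guide that represses CDKN1B, had 1751, 2242 and 2521 units of background-subtracted intensity (lowest, median and highest) on galectin-9 arrays, against 1316, 1547 and 1954 on control arrays. The groups overlapped there, since galectin-9 array 6 lay below control 1. After normalisation its log2 intensity was 10.88 to 11.29 with galectin-9 and 10.66 to 10.88 in control. Both groups met at 10.88 and were 0.0006 apart, and in the authors' deposited table, which they quantile-normalised, 3 arrays share the value 1880. These 3 are galectin-9 arrays 3 and 6 and control 5. The means were 11.08 ± 0.21 and 10.74 ± 0.08 (SD, n = 6 each), a log2 difference of 0.34 (95% interval 0.11 to 0.57). This did not pass over all probes (limma adjusted p = 0.259), with galectin-9 higher in 6 of 6 pairs. The galectin-9 arrays lay in separate ranges: 2, 4 and 5 had 11.22 to 11.29 and 1, 3 and 6 had 10.88 to 10.91.

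miR-222-3p, the guide with the same seed, had 735, 1010 and 1189 units before normalisation on galectin-9 arrays, against 569, 759 and 825 on control arrays. Galectin-9 array 6 was lower than control 1, 2, 3 and 6 there, and the other 5 galectin-9 arrays were above all controls. After normalisation the log2 intensity was 9.84 ± 0.18 with galectin-9 and 9.64 ± 0.09 in control (SD, n = 6 each), a difference of 0.20 (95% interval -0.02 to 0.42, limma adjusted p = 0.409). Galectin-9 was higher in 4 of 6 pairs. It held the same rank on many arrays, and in the authors' deposited values (quantile-normalised) the number 788 stands for it on 6 arrays. These are control 1 to 4 and galectin-9 arrays 4 and 6.

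miR-221-5p, the other passenger, had 22.3, 29.4 and 31.9 units before normalisation on galectin-9 arrays, against 19.3, 24.0 and 27.1 on control arrays, with overlap. After normalisation the means were 4.76 ± 0.29 with galectin-9 and 4.64 ± 0.21 in control (SD, n = 6 each). The log2 difference of 0.12 lay within the spread (95% interval -0.20 to 0.44, limma adjusted p = 0.767). It was also dim, at 11.4 to 21.2 times the detection limit on galectin-9 and 6.06 to 16.2 times on control arrays. Levels of different probes were not compared, since each probe has its own response.

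Since 1 precursor yields both arms, the log2 ratio of 5p to 3p on each array was used to test whether they changed unequally. For miR-222, relative to the control mean, galectin-9 arrays lay between 0.41 and 1.00 on the log2 scale and control arrays between -0.20 and 0.26. The groups did not overlap, as for 0.634% of the 473 hairpins with both arms tested. The ratio was 1.58-fold that of control (95% interval 1.26 to 2.00), with the galectin-9 array above its control in 6 of 6 pairs. The share of hairpins with 6 of 6 pairs was not computed. Of the other hairpins named below, miR-215 and miR-491 also had 6 of 6, and miR-6763, whose ratio fell, had 0 of 6. Adjusted over all 473 hairpins the miR-222 ratio did not pass (limma adjusted p = 0.177), and 0 hairpins did (0%). An unadjusted p under 0.05 was reached by 58 (12.3%), and an unmoderated linear model called 2, miR-222 and miR-6763. When the fit was limited to the 167 hairpins whose arms were both detected on every array, miR-222 was the only one to pass (limma adjusted p = 0.0241). With normexp background correction the log2 change of the ratio was -0.04. The offset used there, 50, exceeds the signal of miR-222-5p above background. No other offset was run, and its part in this value was not tested.

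For miR-221 the ratio did not pass. Relative to the control mean, galectin-9 arrays lay between -0.74 and 0.24 and control arrays between -0.37 and 0.19, with overlap, and the 5p over 3p ratio changed 0.86-fold (95% interval 0.65 to 1.13, limma adjusted p = 0.706). Galectin-9 arrays 2 and 4 had the lowest ratios, and these 2 were among the 3 with the highest miR-221-3p. Besides miR-222, the smallest p in this fit belonged to miR-215 (log2 change of the ratio 1.25), miR-6763 (-0.52) and miR-491 (0.84), with limma adjusted p of 0.177, 0.181 and 0.181.

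**Figure D3:**
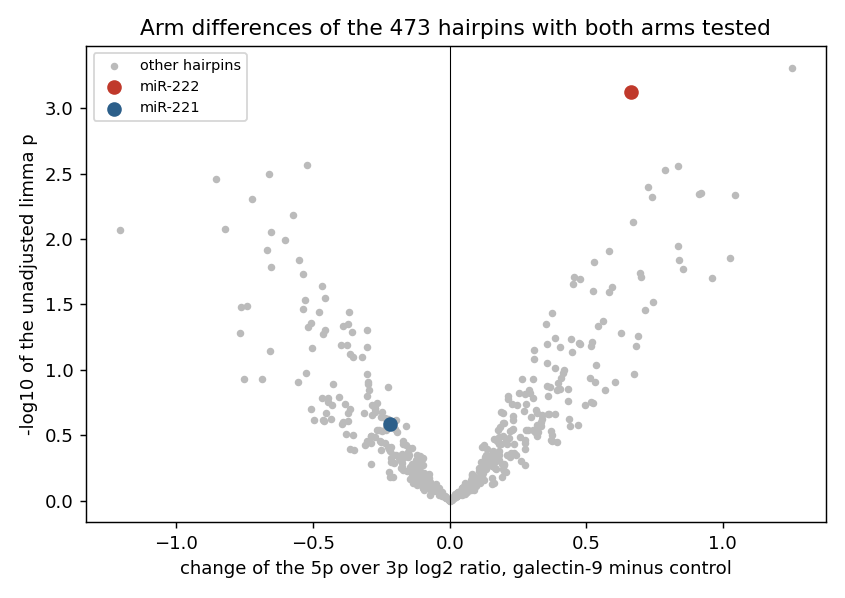
Change of the log2 ratio of the 5p to the 3p arm (x axis, galectin-9 minus control) against -log10 of the unadjusted limma p (y axis), 1 point per hairpin with both arms tested. miR-222 (red, 0.66) lies near the top beside 1 other hairpin, miR-215, and miR-221 (blue, -0.22) lies within the cloud.

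The hairpins of the cluster were then compared with each other, arm by arm. The ratio of miR-222-5p to miR-221-5p was higher with galectin-9. Relative to the control mean, galectin-9 arrays lay between 0.41 and 0.96 on the log2 scale and control arrays between -0.34 and 0.23, without overlap. The share of other probe pairs without overlap was not computed. The log2 difference was 0.74 (95% interval 0.46 to 1.03, exact permutation p = 0.00216, two-sided, adjusted p = 0.00433 over 2 comparisons). Groups without overlap always give this unadjusted p, the smallest that the 12 arrays allow. With the replicate number as a block the adjusted p was 0.0625 (exact sign-flip test), the smallest that 6 pairs and 2 comparisons allow unless both comparisons have a small p. With normexp background correction the log2 difference was 0.11 and did not pass (exact permutation, adjusted p = 0.0606). The guides did not differ detectably: the ratio of miR-222-3p to miR-221-3p changed by -0.14 (95% interval -0.42 to 0.15, exact permutation p = 0.301, adjusted p = 0.301).

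**Figure D4:**
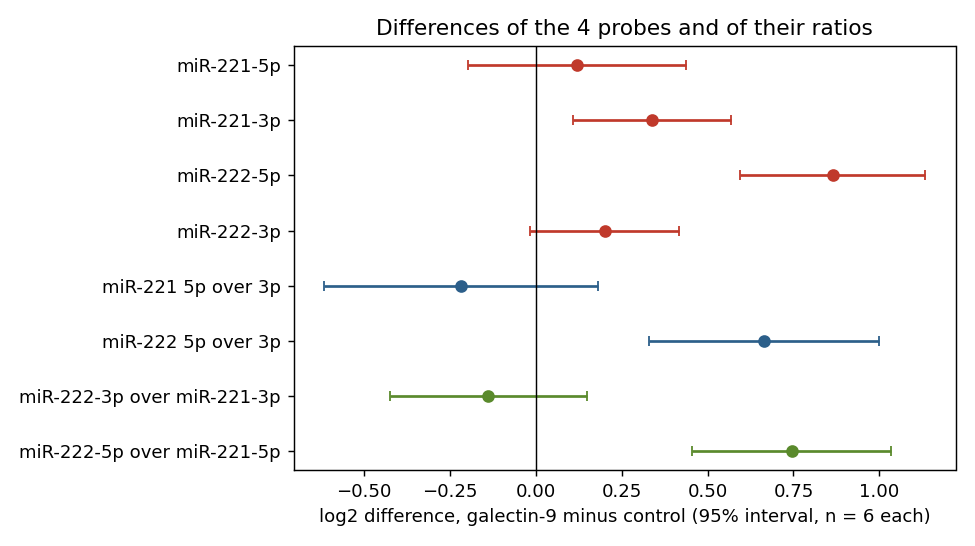
Log2 differences, galectin-9 minus control, with 95% intervals (n = 6 each), of the 4 probes (red, limma), of the 5p over 3p ratio of each hairpin (blue, limma) and of the ratios between hairpins (green, pooled variance). miR-222-5p at 0.86 and both ratios that hold it, 0.66 and 0.74, lie to the right of 0 with their intervals, as does miR-221-3p at 0.34.

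Members could vary together between arrays of the same group, so correlations were computed over the 12 arrays with each group's mean removed. After quantile normalisation 0 of 6 pairs of members passed, with r from -0.48 to 0.54 (permutation test, adjusted p 0.307 to 0.839), and 0 had an unadjusted p under 0.05. For the arms of miR-222 Pearson's r was 0.39 and Spearman's rho 0.39 (permutation p = 0.204 and 0.215, adjusted p = 0.307 and 0.330), and r was 0.29 without the 2 arrays farthest from the median. For the guides miR-221-3p and miR-222-3p r was -0.07 and rho -0.13 (permutation p = 0.833 and 0.683, adjusted p = 0.839 and 0.761), and r was -0.41 without 2 arrays. Before normalisation 4 of 6 pairs passed by Pearson's r and 3 by Spearman's rho. There the guides had r = 0.71 and rho = 0.70 (permutation p = 0.00980 and 0.0143, adjusted p = 0.0294 and 0.0285), and r = 0.56 without 2 arrays. The arms of miR-221 had r = 0.82 and rho = 0.82 (permutation p = 0.00119 and 0.00173, adjusted p = 0.00714 and 0.0104), and r = 0.65 without 2 arrays. Arrays differed in overall brightness, with a median intensity of 10.5 to 15.4 on galectin-9 and 8.85 to 15.4 on control arrays over probes detected on all, and its part in these correlations was not tested. Array sets of 4 arrays were too small for a value of their own.

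The probes whose log2 pattern over the 12 arrays was most like that of each member were then listed among the 890 others detected on all arrays, as a description. For miR-222-5p these were miR-582-5p (r = 0.90), miR-664b-5p (0.89) and miR-4461 (0.88). miR-582-5p is 1 of the 3 probes called (limma adjusted p = 0.0292, passing in 3 of 12 fits that left out 1 array), and with group means removed its r with miR-222-5p was 0.40. For miR-222-3p they were miR-1273e (0.93), miR-92b-3p (0.86) and miR-625-3p (0.84). For miR-221-3p they were miR-6820-5p (0.85), miR-192-5p (0.83) and miR-19a-3p (0.83). For miR-221-5p they were miR-105-5p (0.92), miR-126-5p (0.92) and miR-29b-1-5p (0.91). The partner on the same transcript was never among the closest 3: in likeness to miR-222-5p, miR-222-3p ranked 36 and miR-221-3p 83, in likeness to miR-222-3p, miR-222-5p ranked 20 and miR-221-3p 119, and in likeness to miR-221-3p, miR-222-5p ranked 53 and miR-222-3p 114. In likeness to miR-221-5p the other members ranked 137 to 278.

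Other miRNAs described as repressing CDKN1B gave no call: 4 of 5 were tested and 0 passed, against 0.173% of all probes tested (limma, 0 of the 4 in an unmoderated model). An unadjusted p under 0.05 was reached by 1, higher with galectin-9, as by 4.21% of all probes tested. In the list all 4 lay above 0, against 36.6% of all probes tested and 44.7% of those detected on all arrays. The median log2 difference of the 4 was 0.18. The smallest p were those of the HOX cluster miRNAs miR-196a-5p, with 2.43 ± 0.31 in galectin-9 and 2.05 ± 0.25 in control cells (SD, n = 6 each, difference 0.38, limma adjusted p = 0.355), and miR-196b-5p (0.17, adjusted p = 0.488).

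Transcription of the cluster is known to respond to AP-1 and NF-kB, and 12 other probes of miRNAs described as induced through these or through CREB were on the array. Of these, 8 were tested and 0 passed, against 0.173% of all probes tested (limma, 0 of the 8 in an unmoderated model). An unadjusted p under 0.05 was reached by 3, all higher with galectin-9, as by 4.21% of all probes tested. In the list 7 lay above 0, against 36.6% of all probes tested and 44.7% of those detected on all arrays. The median log2 difference of the 8 was 0.28. The smallest p were those of miR-21-5p, a miRNA abundant in carcinomas, and miR-31-5p. miR-21-5p had 11.97 ± 0.14 with galectin-9 and 11.54 ± 0.18 in control (SD, n = 6 each, difference 0.42, limma adjusted p = 0.204), with galectin-9 higher in 6 of 6 pairs, and it passed with trend and robust variances and with normexp. miR-31-5p had 9.46 ± 0.08 with galectin-9 and 9.21 ± 0.09 in control (SD, n = 6 each, difference 0.25, limma adjusted p = 0.267), and it passed with normexp. Both arms of miR-146a and of miR-155, the usual NF-kB responders, were detected on 1 to 4 arrays and were not tested.

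The members' differences moved with the normalisation. Without normalisation between arrays the log2 differences were 0.96 in miR-222-5p (limma adjusted p = 0.0172), 0.49 in miR-221-3p, 0.44 in miR-222-3p and 0.23 in miR-221-5p, while the median over all tested probes was 0.06. The authors' global normalisation, which sets each array's median of listed probes to 25, raised that median to 0.23 and gave 1.13, 0.67, 0.61 and 0.40 in the same order. With the negative-control spots as background in place of the blanks and no normalisation, miR-222-5p had 0.97 (adjusted p = 0.0260). Replicates 1, 3 and 5 sat at positions 1 and 2 and replicates 2, 4 and 6 at positions 3 and 4. After quantile normalisation the difference at positions 1 and 2 was 1.05 in miR-222-5p and 0.41 in miR-222-3p. At positions 3 and 4 it was 0.67 and 0. On that scale the guides went opposite ways, since miR-221-3p had 0.21 at positions 1 and 2 and 0.44 at positions 3 and 4. With all arrays normalised together, miR-222-3p had 9.62, 9.62 and 9.80 in both groups at positions 3 and 4. Before normalisation miR-221-3p had 2458, 2154 and 2521 units against 1954, 1721 and 1461 in control at positions 1 and 2. At positions 3 and 4 it had 2089, 2329 and 1751 against 1633, 1376 and 1316. There miR-222-3p had 887, 989 and 735 against 825, 661 and 777. Position differences were not computed before normalisation. No difference between positions was tested.

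**Figure D5:**
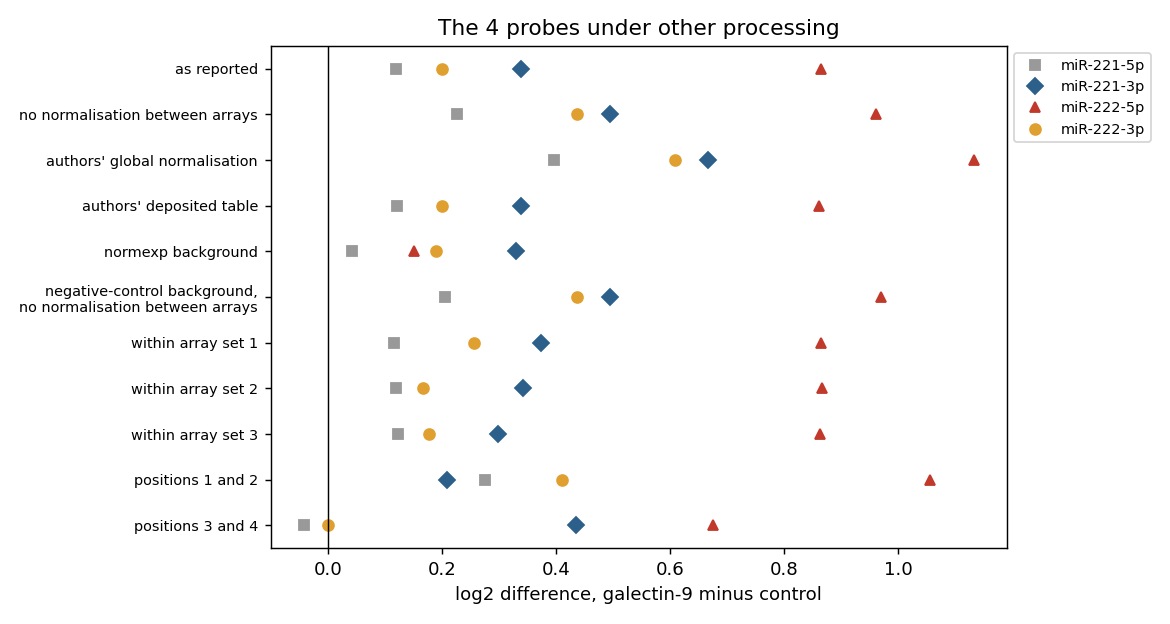
Log2 difference, galectin-9 minus control, of the 4 probes (x axis) under the reported processing and 10 alternatives (rows). miR-222-5p (triangles) lies farthest right in 10 of the 11 rows, from 0.67 to 1.13, and at 0.15 under normexp with an offset of 50, where miR-221-3p and miR-222-3p exceed it.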

How the data were processed

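Each array file holds 3200 spots with a raw, a background-subtracted and a globally normalised Cy5 intensity, per the file headers, in arbitrary linear units. Comparison of the columns showed that the authors' background is a trimmed mean over 320 blank spots that drops 5% at both ends. A series table, deposited by the authors, gives quantile-normalised linear intensity for 891 probes. The scanner is not given in the sources used here.

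Intensity above background was quantile-normalised here across the human probes (limma 3.58.1, R 4.3.3), 6 spots marked not good were left out, undetected values were set to the array's lowest detected value, and log2 was taken. Probes detected on at least 6 arrays were tested with lmFit and eBayes. The members, lists and tests were chosen with earlier results of these data known. Named are the members, for each the 3 probes with the highest r, the 3 other hairpins with the smallest p for the arm ratio, and per list the called probes and the 2 with the smallest p. Equal replicate numbers were taken as pairs, since deviations from the group means correlated above 0.1 in 6 of 6 pairs (0.171 to 0.527). Galectin-9 and control arrays of different number had a median of -0.042 and reached 0.208. Each array set holds 2 replicate numbers, so arrays of different number can also share a set, and these were not examined separately. Arrays of equal number also sit at positions 1 and 2 or at positions 3 and 4 of their set. Pairing and this placement therefore cannot be told apart here. The fit as reported holds the group only and does not use the pairs. 1 further list is not reported here. Fits were tested on simulated data. The number of arrays limits the precision. Python 3.11.15 and scipy 1.17.1 gave the exact and permutation tests.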

Additional observations from a re-analysis of the deposited data

Results flagged for a closer look

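For miR-222-3p in the control group, 1 array stood apart after normalisation: control 6 had a log2 intensity of 9.80, while 4 control arrays shared 9.62 and control 5 had 9.52. Its gap to the nearest array was 0.639 of the group's range. Before normalisation miR-222-3p had 777 units on control 6, within the control range of 569 to 825. Control 6 is also the array with the fewest detected probes. Chance flags about 1 in 20 groups when values are not shared, a rate that does not hold where 4 arrays share a value. In all, 22 groups of values were screened.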

How the results depend on the processing

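Of the 1734 probes tested 3 passed as reported. The count was 9 with the authors' deposited table, with 1 floor common to all arrays and with probes detected on all arrays. It was 19 with normexp, 14 with eBayes trend and robust, 6 unmoderated, 5 with the array set as a block, 1 under the replicate block, and 2 to 5 when 1 array was left out, with 5 without galectin-9 replicate 1. It was 0 with any 1 array set left out and 0 at either pair of positions, where fewer arrays remain. For arm ratios the count was 0 as reported, 1 with the deposited table, 5 with normexp, 4 with a common floor, 1 with probes detected on all arrays, 2 unmoderated, and 0 when any 1 array was left out.

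miR-222-5p kept its direction in all alternatives run. It did not pass with the replicate number as a block (0.86), without array set 1, 2 or 3 (0.87, 0.86 and 0.87, limma adjusted p = 0.206, 0.499 and 0.107), or at positions 1 and 2 (1.05) or 3 and 4 (0.67), each of which leaves 8 or 6 arrays except the block. With any 1 array left out it passed, at 0.82 to 0.92. The miR-222 arm change passed at 0.66 with the deposited table, a common floor, probes detected on all arrays and the unmoderated model, turned to -0.038 with normexp, and was 0.60 to 0.71 with 1 array left out. The ratio of miR-222-5p to miR-221-5p was 0.11 with normexp (exact permutation, adjusted p = 0.0606), 0.73, 0.75 and 0.75 without array set 1, 2 or 3, 0.78 and 0.72 at positions 1 and 2 and at 3 and 4, and 0.74 with the replicate block, none of which passed. The exact test could not pass with the 6 arrays of a pair of positions. With the 8 arrays left without 1 set it could pass only if both comparisons between hairpins did. The same held for the sign-flip test of the replicate block. With 1 array left out the ratio was 0.68 to 0.81 and passed each time. miR-221-3p passed at 0.34 with trend and robust variances (limma adjusted p = 0.0248), and was 0.30 to 0.38 with 1 array left out.

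Signs also turned at positions 3 and 4 for miR-221-5p (-0.042) and for the named miR-126-5p (-0.19), miR-1273e (-0.069), miR-625-3p (-0.064), miR-105-5p (-0.015) and miR-29b-1-5p (-0.0080), within array set 1 for miR-105-5p (-0.032) and set 2 for miR-1273e (-0.019), for the miR-221 arm change (0.066) and the ratio of miR-222-3p to miR-221-3p (0.20) at positions 1 and 2, and, without normalisation, for the correlations of miR-221-3p with miR-222-5p (0.51) and with miR-222-3p (0.71). With 1 array left out, miR-221-5p was 0.03 to 0.19, miR-222-3p 0.16 to 0.25, the miR-221 arm change -0.32 to -0.12 and the ratio of the guides -0.20 to -0.07. Besides miR-222-5p, its ratio to miR-221-5p and miR-582-5p, the replicate block changed no call for a named probe or ratio. Position subsets, the negative-control background and the alternatives for correlations were chosen after seeing the data. The cause of these changes was not tested. The 5p probes lie closest to background, and the part of this in their spread was not tested.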
